A study of Mus musculus with 7899 samples.

Results

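A set of 10 genes of the immediate-early class was followed in mouse pancreatic β cells: Fos, Fosb, Fosl2, Jun, Junb, Jund, Npas4, Egr1, Nr4a1 and Ier2. They were taken by symbol from read-count tables of single β cells, which list up to 21767 genes, so the members are 10 of 21767 genes. The Stat3 knockout table holds 12792 genes and 5 of the members (Fos, Fosb, Fosl2, Egr1 and Nr4a1), and the other 5 were not analysed there. Every member passed the filter on low counts in every table that lists it. The cells were sorted from islets of female C57BL/6J mice that had been dispersed with collagenase P and then trypsin, and each was sequenced on its own by a full-length method. Reads of the 7897 β cells were summed by group and replicate into 100 libraries of 48 groups, in 7 tables that were each normalised separately.

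The first table covers gestation, from day 3.5 (G3.5) to G18.5 as labelled, and days 2, 7 and 14 after delivery in mothers labelled L or NL, read here as lactating and not lactating, against non-pregnant females (G0). The knockout tables set Acss2, Stat3 or p300 knockout (KO) mice against WT mice, at G14.5 and G18.5 (p300: G14.5 only) and at G0. The labels used here give the knockouts no more detail than the gene, so the driver of deletion and the ages are not given. The diet table holds high-fat diet (HFD) Acss2 KO and Acss2 WT mice at G14.5 and G0, HFD mice with no genotype label at G14.5, P7NL and G0, and Acss2 WT mice on standard diet at G14.5. In the culture tables, islets were kept for 4 days in 20% human maternal serum (MS) or normal serum (NS), with 5 µM A485, a p300/CBP acetyltransferase inhibitor, or 20 µM nifuroxazide, a STAT3 inhibitor, each against DMSO vehicle. Each group had 2 replicates, except G14.5, G18.5, P14L and HFD G14.5 with 3. The p-values therefore measure the spread between these summed libraries.

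Immediate-early genes are transcribed within minutes of a stimulus, without new protein synthesis, because the factors that switch them on (CREB, SRF and their partners) are already in the cell. Fos, Fosb, Fosl2, Jun, Junb and Jund encode subunits of the AP-1 dimer. Egr1 is a zinc-finger factor, Nr4a1 an orphan nuclear receptor and Npas4 a factor induced by calcium entry, while Ier2 is a nuclear protein of the same early response. In β cells, glucose and depolarisation are known to induce several of them through calcium and cAMP. These genes are also known to respond to enzymatic dissociation of tissue, a step that all groups went through, and no label used here gives its duration.

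Promoters of 8 of the 10 members were matched in RefSeq (GRCm38.p6, 250 bases before to 50 after the start used for each gene), and Egr1 and Ier2 are named only. For Fosb, Npas4 and Nr4a1 that start lies inside the gene span given below, rather than at its first base. Those of Fos, Npas4 and Nr4a1 are shown because these genes moved together across libraries, and that of Jun because it followed them less closely. Capitals mark TGACG on either strand, the core of the cAMP response element bound by CREB, and in Jun the letters TGACATCA, the element known to bind Jun-ATF dimers.
Fos, chr12:85473640-85473939, plus strand: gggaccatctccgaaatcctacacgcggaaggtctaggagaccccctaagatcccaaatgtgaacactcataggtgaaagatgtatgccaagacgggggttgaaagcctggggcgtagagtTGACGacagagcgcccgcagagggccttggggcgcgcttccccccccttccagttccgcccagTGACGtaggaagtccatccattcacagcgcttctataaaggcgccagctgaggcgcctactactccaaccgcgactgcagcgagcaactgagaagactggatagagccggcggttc
Npas4, chr19:4989922-4990221, minus strand: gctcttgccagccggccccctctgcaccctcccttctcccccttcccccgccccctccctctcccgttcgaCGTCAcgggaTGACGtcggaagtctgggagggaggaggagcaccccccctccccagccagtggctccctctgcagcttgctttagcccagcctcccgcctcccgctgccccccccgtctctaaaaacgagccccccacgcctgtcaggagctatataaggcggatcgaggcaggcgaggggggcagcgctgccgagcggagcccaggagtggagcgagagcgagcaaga
Nr4a1, chr15:101266596-101266895, plus strand: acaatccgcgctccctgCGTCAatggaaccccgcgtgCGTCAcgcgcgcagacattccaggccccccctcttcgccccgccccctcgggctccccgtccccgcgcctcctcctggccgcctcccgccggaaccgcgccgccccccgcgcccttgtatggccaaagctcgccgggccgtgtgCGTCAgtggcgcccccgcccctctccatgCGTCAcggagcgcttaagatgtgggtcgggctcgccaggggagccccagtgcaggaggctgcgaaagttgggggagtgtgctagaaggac
Jun, chr4:95052173-95052472, minus strand: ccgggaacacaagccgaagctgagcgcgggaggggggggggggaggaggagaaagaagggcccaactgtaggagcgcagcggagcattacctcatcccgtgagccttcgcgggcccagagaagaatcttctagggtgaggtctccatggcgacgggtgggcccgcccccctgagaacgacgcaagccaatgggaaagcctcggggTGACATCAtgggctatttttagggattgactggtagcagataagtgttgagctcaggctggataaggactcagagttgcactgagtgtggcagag
The core TGACG was found in 5 of the 8 promoters (Fos, Fosb, Junb, Nr4a1 and Npas4), against 20.8% of 32851 promoters of the same length. TGACATCA, a search added after the data had been seen, was found in 1 of the 8, that of Jun, against 3.62% of all promoters. GCGNGGGCG, the letters bound by EGR factors, was found in 3 of the 8 (Fosl2, Fosb and Nr4a1; in Fosb and Nr4a1 beside the core), against 5.55%. The full TGACGTCA (1.79% of all promoters), TGANTCA for AP-1 (7.81%), TTCNNNGAA for STAT factors (8.30%), AAAGGTCA for NR4A receptors (1.51%) and the CArG box of SRF (1.63%) were in none of the 8. Both strands were searched, and none of the motifs was found in Jund. Bases farther than 250 before or 50 after the start, and the promoters of Egr1 and Ier2, were not searched. On GRCm38 the genes lie at 12:85473890-85477274 (Fos), 7:19302696-19310118 (Fosb), 5:32136472-32157840 (Fosl2), 4:95049036-95052222 (Jun), 8:84976909-84978748 (Junb), 8:70697739-70700616 (Jund), 19:4984353-5003439 (Npas4), 15:101253902-101274795 (Nr4a1) and 8:84661331-84662852 (Ier2), by the GENCODE M21 annotation.

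The libraries held 13273435 to 181405413 reads, and the median cell of a library had 329786 to 1824596 reads and 5223 to 9292 detected genes. Insulin transcripts (Ins1 and Ins2) took 33.04% to 69.8% of the reads. In the pregnancy table the summed level of the β-cell markers was 515314 to 653220 CPM (reads per 1e6 reads of the library), against 786 to 4898 CPM for α-cell, 33.8 to 3859 CPM for δ-cell, 0.0200 to 7.84 CPM for acinar, 0 to 4.46 CPM for endothelial and 0 to 1.58 CPM for stromal markers. The targeted gene was lower in both KO libraries than in both WT libraries in every Acss2 and p300 contrast, yet it kept reads in every KO library. At G0, Acss2 was at 11.3 and 9.8 CPM in KO cells, against 17.996 and 26.1 CPM in WT cells, and Ep300 (p300) at 15.93 and 11.95 CPM in KO cells, against 24.2 and 36.7 CPM in WT cells. Stat3 overlapped at G0, with 66.1 and 49.4 CPM in KO cells and 65.9 and 70.8 CPM in WT cells. Which exons the knockouts lack is not given, so a gene-level count is a weak check of these labels.

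Per kilobase of gene length, Fos was the most abundant member and Fosl2 the least. Over the 88 libraries of the 6 tables that list all 10 members, the median level was 154.8 CPM per kb for Fos, 77.5 for Junb, 47.6 for Egr1 and 34.5 for Ier2. It was 22.4 CPM per kb for Jun, 19.9 for Jund, 11.2 for Fosb, 11.1 for Nr4a1, 5.17 for Npas4 and 0.546 for Fosl2. The order was firm at both ends: Fos was above Junb in 85 of 88 libraries and Npas4 above Fosl2 in 84 of 88. It was loose in the middle, since Ier2 was above Jun in 64, Jun above Jund in 55 and Fosb above Nr4a1 in 56 of 88 libraries. Jund, an AP-1 subunit known for steady expression, varied least, with its highest library 2.90 times its lowest (33.1 against 11.4 CPM per kb). The highest library was 10.3 times the lowest for Fos, 72.5 times for Fosb, 153.5 times for Npas4 and 206.4 times for Nr4a1. These ranges cross tables that were normalised separately.

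Within libraries the members ran from transcripts found in nearly every β cell to transcripts concentrated in a few. With every cell thinned to 200000 reads (47 shallower cells left out), a read was found in 100% of cells for Jund, 98.8% for Fos, 97.9% for Egr1, 96.3% for Junb, 84.9% for Jun and 82.2% for Ier2, as medians over libraries. The shares were 72.5% for Fosb, 65.6% for Nr4a1, 42.3% for Npas4 and 16.3% for Fosl2, and without thinning 85.96%, 78.5%, 56.7% and 23.3% for the same 4 genes. The top 5% of cells held 12.99% of the reads of Jund and 15.6% of those of Fos, against 44.7% for Npas4 and 58.8% for Fosl2.

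Across cells of a library the same genes were high together. The median Spearman rho over libraries was 0.638 for Fos and Egr1 (98 libraries, from 0.263 to 0.841), 0.579 for Fos and Fosb, 0.558 for Fosb and Egr1 and 0.544 for Fos and Junb. It was lower for Fos and Jun (0.395) and for Jun and Jund (0.262), and pairs with Fosl2 lay between -0.0139 and 0.0808. Cells of a library share its preparation, and cell depth is common to both genes of a pair.

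Across the 35 pregnancy libraries a Fos-like set and a pair of Jun genes stood out, though not sharply apart. Pearson's r of log2 CPM was 0.88 for Fos and Fosb (Spearman's rho 0.79) and 0.86 for Fos and Junb (rho 0.81). It was 0.84 for Npas4 and Nr4a1 (rho 0.76) and 0.82 for Fos and Egr1 (rho 0.68). Jun and Jund had an r of 0.75 with each other (rho 0.78), while Jund and Fos had 0.17 (rho 0.27). Jun had an r of 0.45 with Fos (rho 0.52) and 0.44 with Junb (rho 0.51). Without replicates 1 and 3 of G14.5, the libraries lowest for most members, r was 0.82 for Fos and Fosb, 0.74 for Fos and Junb, 0.76 for Npas4 and Nr4a1, 0.68 for Fos and Egr1 and 0.81 for Jun and Jund. For Jund and Fos it was then 0.35, and for Jun and Fos 0.46. The points share stage and library, so these are descriptions without a p-value.

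**Figure D1:**
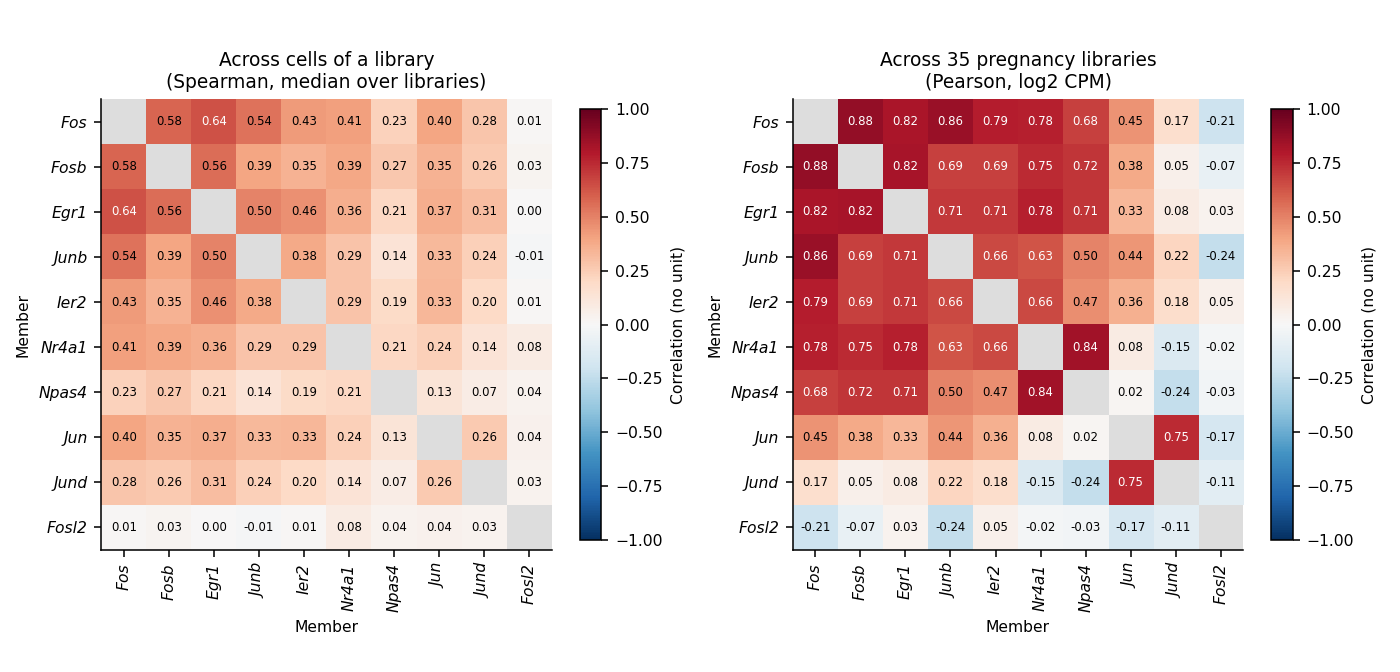
Correlations between the 10 members across cells (median Spearman rho over libraries) and across the 35 pregnancy libraries (Pearson's r of log2 CPM). Pairs among Fos, Fosb and Egr1, and the pair of Fos and Junb, are among the warmest in both panels. Jun and Jund pair across libraries, and Fosl2 stands apart across cells.

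The genes whose log2 CPM over the 35 libraries was most like the mean of the 10 members were Arc (r = 0.87, and 0.76 without the same pair of G14.5 libraries), Ppp1r15a (0.85 and 0.81), Zfp36 (0.83 and 0.73), A230050P20Rik (0.77 and 0.49), Baiap3 (0.75 and 0.48), Pitpnm1 (0.75 and 0.60), Srf (0.72 and 0.63), Ubald1 (0.72 and 0.65), Fuz (0.72 and 0.51) and Tomm40 (0.72 and 0.68). Arc is an activity-regulated gene, Zfp36 encodes an RNA-binding protein that shortens the life of AU-rich transcripts, Ppp1r15a a phosphatase subunit of the stress response and Srf a transcription factor of immediate-early promoters. The gene most like Npas4 alone was Srf (r = 0.80, and 0.72 without that pair), and the gene most like Jund alone was Ctdnep1 (r = 0.79 both ways).

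Through gestation, Jun was the member called at most stages, 5 of 9, always higher than at G0. Jun had 43.6 and 17.1 CPM at G0, 48.2 and 42.2 at G3.5, 71.6 and 39.5 at G5.5, 98.2 and 45.4 at G6.5, 84.5 and 131.8 at G8.5, and 100.9 and 178.9 CPM at G10.5. Later it had 65.4 and 89.8 CPM at G12.5, 51.95, 69.5 and 61.8 at G14.5, 148.9 and 109.04 at G16.5, and 102.4, 82.99 and 119.1 CPM at G18.5. In 18 of 20 gestation libraries Jun lay above both G0 libraries. G0 replicate 2 was also the smallest library of the table, with 35 cells and 25623339 reads. By edgeR's quasi-likelihood test with Benjamini-Hochberg adjustment, Jun was higher than at G0 at G8.5 (log2 fold change 1.81 ± 0.37 SE, adjusted p = 0.00258), G10.5 (2.19 ± 0.38, 0.000588), G12.5 (1.34 ± 0.37, 0.0286), G16.5 (2.07 ± 0.38, 0.000587) and G18.5 (1.72 ± 0.35, 0.00203). It did not pass at G3.5 (0.56), G5.5 (0.85), G6.5 (1.22) or G14.5 (0.99). G0 replicate 2 was the lowest library of the table: without it Jun was called in 3 of the 15 comparisons of gestation and post-delivery groups with G0 (G10.5, G16.5 and P7L), and without G0 replicate 1 in 13. Leaving out G8.5 replicate 2, G12.5 replicate 2 or P2L replicate 2 also ended the call of that group, and limma ended that at G12.5.

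Jund rose at G10.5, G14.5 and G16.5. Jund averaged 74.1 ± 2.72 CPM at G10.5 (SD, n = 2), and had 57.8, 57.2 and 80.7 CPM at G14.5 and 71.96 and 61.2 CPM at G16.5, against 42.4 and 44.2 CPM at G0. No library of these stages overlapped with G0 for Jund, and the share of all genes without overlap was not counted. The log2 fold changes were 0.77 ± 0.19 (adjusted p = 0.0215), 0.59 ± 0.18 (0.0295) and 0.62 ± 0.19 (0.0441) by edgeR. The calls at G10.5 and G16.5 were lost on leaving out any of their 4 libraries, and that at G14.5 without either G0 library or G14.5 replicate 3. Limma and a block on replicate number each ended the call at G14.5, and DESeq2 size factors that at G16.5. Over the 9 stages, 8 of 90 member tests were called (DESeq2 9, limma on the mean CPM of cells 6), and 64 of the 90 fold changes were positive. Of all 15373 genes tested by edgeR, 0.579% were called at G3.5, 1.57% at G5.5, 1.65% at G6.5, 5.79% at G8.5, 2.76% at G10.5, 5.03% at G12.5, 10.1% at G14.5, 7.25% at G16.5 and 4.77% at G18.5. The calls were 2 of 10 members at G10.5 and G16.5 and 1 of 10 at G8.5, G12.5, G14.5 and G18.5, all of them Jun or Jund, and at G14.5 that count is at the background. Leaving out G0 replicate 2 gave 2 calls, and leaving out G14.5 replicate 2 gave 13.

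Fos, Fosb, Egr1, Junb and Npas4 lay above G0 in most gestation libraries without passing the test. Fos had 458.0 and 409.6 CPM at G8.5 and 417.1 and 425.8 CPM at G16.5, against 207.9 and 235.1 CPM at G0. In 17 of 20 gestation libraries Fos lay above both G0 libraries, and likewise Fosb in 17, Egr1 in 15, and Junb and Npas4 in 14 each. Ier2 did so in 7 and Nr4a1 in 2, and Fosl2, the scarcest member at 0.932 to 6.08 CPM, lay below both G0 libraries in 17. The members as a group thus differed in direction.

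At G14.5 the 3 libraries stood apart from each other. Fos had 101.9, 333.4 and 178.3 CPM at G14.5, Egr1 79.5, 271.7 and 92.4, Nr4a1 2.69, 26.2 and 3.75, and Npas4 0.819, 6.31 and 0.876 CPM. Replicate 1 was the lowest of all 35 libraries for 7 members and replicate 3 was among the 3 lowest for 7. Without both of these libraries, an alternative added after the data had been seen, the log2 fold change at G14.5 was 0.59 for Fos, 1.18 for Jun, -0.05 for Npas4 and -0.17 for Nr4a1, and Jund was no longer called (adjusted p = 0.442). Without G14.5 replicate 2 instead, 5 members were called lower at G14.5: Fosb by -1.52, Npas4 by -2.95, Egr1 by -1.12, Nr4a1 by -3.19 and Ier2 by -1.11. The share of all genes called in that fit is not given here. With all 3 libraries it was 10.1%.

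**Figure D2:**
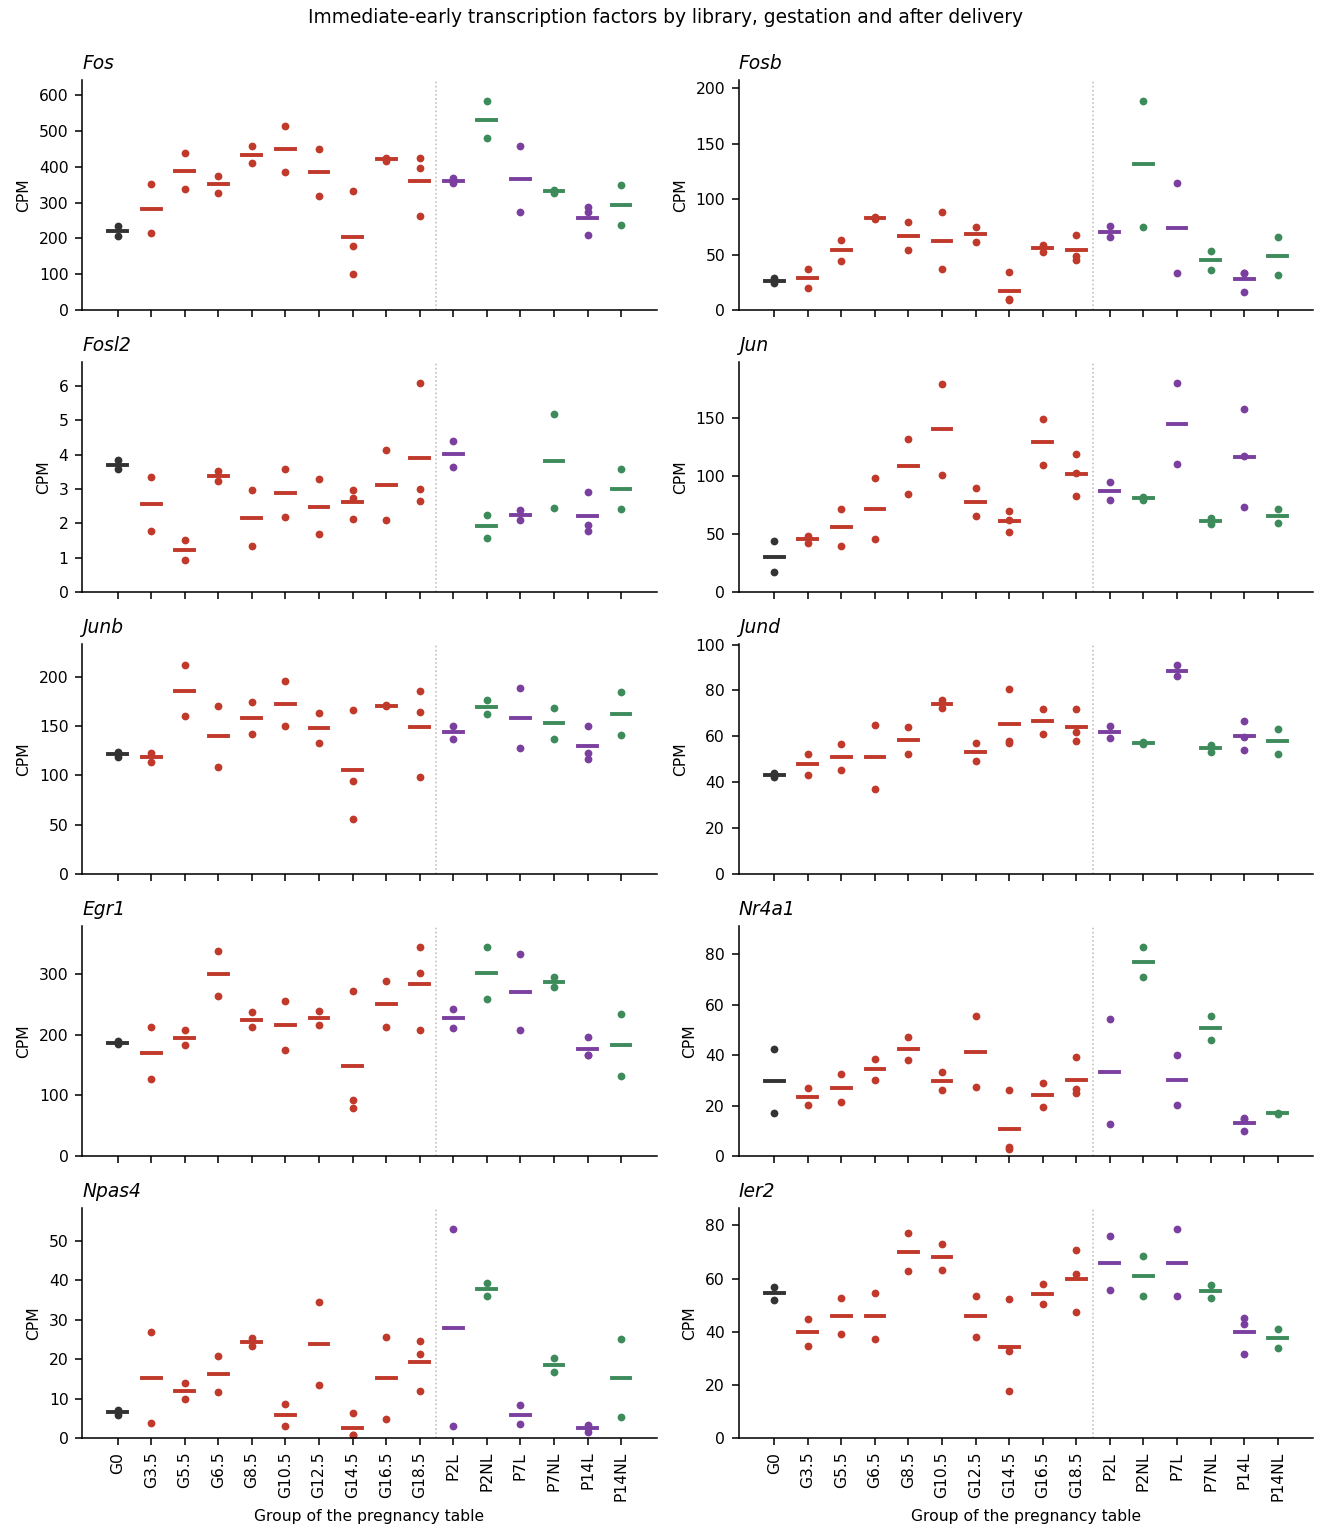
Level of each member in CPM in every pregnancy-table library, one panel a gene, over the 16 groups, with bars at the group means (G0 black, gestation red, L purple, NL green). Jun lies above both G0 libraries in 18 of 20 gestation libraries and 13 of 13 after delivery, while 2 of the 3 G14.5 libraries are low for most other members.

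After delivery, Jun was higher in L mothers than at G0 on each of the 3 days. Jun had 79.3 and 94.9 CPM at P2L, 179.6 and 110.01 CPM at P7L and 117.4, 157.3 and 73.6 CPM at P14L, against 43.6 and 17.1 CPM at G0. The log2 fold changes against G0 were 1.50 ± 0.37 (adjusted p = 0.0189), 2.24 ± 0.38 (0.000364) and 1.92 ± 0.35 (0.00104) by edgeR. In NL mothers Jun had 79.3 and 82.1 CPM at P2NL, 64.1 and 58.9 CPM at P7NL and 71.4 and 59.1 CPM at P14NL, and none of the 3 contrasts with G0 was called (1.39, 1.00 and 1.09). The calls at P2L and P14L were lost without G0 replicate 2, and that at P2L also without P2L replicate 2. Jund was higher at P7L, with 91.007 and 86.3 CPM, against 42.4 and 44.2 CPM at G0 (1.03 ± 0.19, adjusted p = 0.00117), and kept its call without any 1 library.

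Fosb, the AP-1 subunit whose products can accumulate with repeated stimulation in neurons, was higher at P2NL. Fosb had 188.4 and 75.005 CPM at P2NL, against 28.5 and 24.6 CPM at G0, with a log2 fold change of 2.31 ± 0.55 (adjusted p = 0.0386). The call was lost without either G0 library, without P2NL replicate 1 and with limma. Fos, Nr4a1 and Npas4 were high in the same libraries and were not called: Fos had 583.4 and 480.1 CPM at P2NL, against 207.9 and 235.1 CPM at G0. Nr4a1 had 71.1 and 82.9 CPM at P2NL, against 17.1 and 42.3 CPM at G0, and Npas4 had 36.1 and 39.3 CPM, against 5.93 and 7.21 CPM. After delivery 5 of 60 member tests against G0 were called (DESeq2 5, limma 5), over backgrounds of 2.61% at P2L, 0.572% at P2NL, 3.35% at P7L, 0.462% at P7NL, 3.43% at P14L and 0.280% at P14NL. The median log2 fold change of the members at P2NL was 0.98.

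Between L and NL mothers the members gave no call in the main test. Between L and NL mothers, edgeR called 0 of 30 member tests (5 at an unadjusted p under 0.05, limma 0, DESeq2 1, which was Jund at day 7), with backgrounds of 0.124% at day 2, 0.839% at day 7 and 0.722% at day 14. Without the filter on low counts edgeR called 11, and these backgrounds do not belong to that fit. Jund at 91.007 and 86.3 CPM in P7L mothers and 53.3 and 56.2 CPM in P7NL mothers did not overlap (log2 fold change 0.70, adjusted p = 0.0931), and nor did Jun (1.24, 0.143). The share of all genes without overlap was not counted. With cells thinned, a Jun read was found in 96.9% and 93.9% of P7L cells and in 81.1% and 79.7% of P7NL cells, and the median cell held 149.5 and 67.04 CPM at P7L and 23.6 and 31.7 CPM at P7NL. Npas4 had 2.66, 3.38 and 1.50 CPM in P14L mothers and 25.1 and 5.46 CPM in P14NL mothers (-2.60, adjusted p = 0.212). Against G18.5, 0 of 20 tests of P2L and P2NL were called by edgeR (3 at an unadjusted p under 0.05, DESeq2 0, limma 0), with backgrounds of 0.0260% and 1.30%.

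Of the Other immediate-early and early-response genes, a comparison list, Myc was called higher than G0 in 10 of the 15 groups, from 2.11 at P14L to 3.35 at G8.5 on the log2 scale. Gem, a GTPase that inhibits calcium channels, rose at G5.5 (2.02), G6.5 (1.60), G18.5 (1.89), P2L (1.78) and P2NL (1.80). Among the Feedback inhibitors, Rgs2, which dampens G-protein signalling, rose at G3.5 (2.66), G5.5 (2.46), G6.5 (1.81) and P2NL (2.23). Crem of the same list rose at G6.5 (0.94), G8.5 (1.13), G10.5 (1.27), G14.5 (0.97), G16.5 (1.06) and P2L (0.94). Among the Upstream regulators, Srf (-0.90), the CREB coactivator Crtc1 (-0.82) and Crtc3 (-0.61) fell at G14.5, while Mef2a (0.67) rose. Of the heat-shock genes Dnajb1 was called in several groups, with 1.56 at G10.5, where Jun was also called, and its part in the result was not tested. Gc of the α-cell list was called lower in every group where Jun was called except G8.5 (-2.40 to -1.26), and at G8.5 the summed hepatocyte markers stood at 511.5 and 357.6 CPM, against 9.62 and 17.99 CPM at G0. Their part was not tested either.

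In the Acss2 table at G18.5, 3 members were higher in KO than in WT cells. Acss2 encodes the enzyme that turns acetate into acetyl-CoA. Fos had 355.6 and 400.3 CPM in Acss2 KO cells, against 183.1 and 99.3 CPM in WT cells at G18.5. Fosb had 72.5 and 72.4 CPM in KO cells, against 19.9 and 4.60 CPM in WT cells, and Npas4 had 14.7 and 24.4 CPM in KO cells, against 2.61 and 0.668 CPM in WT cells. None of these 3 overlapped between genotypes, and the share of all genes without overlap was not counted. WT replicate 2 was the lower WT library for each of the 3 genes. By edgeR, the 3 were called higher in KO cells: Fos by 1.42 ± 0.23 (adjusted p = 0.0228), Fosb by 2.56 ± 0.43 (0.0251) and Npas4 by 3.56 ± 0.48 (0.0102). That is 3 of 10 members, against 0.149% of the 14057 genes tested. All 10 fold changes were positive, with a median of 1.03, against 0.0082 over all genes tested.

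Of the members that did not pass at G18.5, Egr1 had 223.4 and 196.0 CPM in KO cells, against 118.9 and 40.5 CPM in WT cells (log2 fold change 1.40, adjusted p = 0.0793). Nr4a1 had 31.7 and 19.1 CPM in KO cells, against 9.28 and 1.43 CPM in WT cells (2.24, 0.104), and Junb 110.8 and 105.9 CPM, against 62.96 and 73.2 CPM (0.67, 0.202). DESeq2 called 5 members (Fos, Fosb, Junb, Npas4 and Egr1) and limma 0, while 7 had an unadjusted edgeR p under 0.05. Npas4 kept its call without any 1 library, Fos lost it without KO replicate 1, KO replicate 2 or WT replicate 2, and Fosb without either KO library. The difference ran across cells: with cells thinned, an Npas4 read was found in 35.4% and 56.6% of KO cells, against 12.2% and 4.69% of WT cells. The median cell held 379.9 and 443.2 CPM of Fos in KO libraries, against 137.8 and 49.1 CPM in WT libraries.

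In the same table, the WT cells at G18.5 were below WT cells at G0, while the KO cells were not called so. Npas4 had 2.61 and 0.668 CPM at G18.5, against 13.7 and 24.7 CPM at G0 in WT cells (-3.54 ± 0.48, adjusted p = 0.000277). Junb had 62.96 and 73.2 CPM at G18.5, against 152.5 and 137.99 CPM at G0 in WT cells (-1.09 ± 0.20, 0.00396). Fos (-1.01), Fosb (-1.44), Egr1 (-1.24), Nr4a1 (-1.94) and Ier2 (-0.71) also fell, with adjusted p from 0.0140 to 0.0468 by edgeR. This made 7 of 10 members lower, against 6.89% of genes called in either direction and 2.78% called lower. Npas4 and Junb kept their calls without any 1 library and with limma, and the other 5 lost theirs without G0 WT replicate 1, G0 WT replicate 2 or G18.5 WT replicate 2, and Ier2 also without G18.5 WT replicate 1. Limma ended those 5 calls, and DESeq2 those of Fosb and Nr4a1.

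In the pregnancy table Jun was the one member called at G18.5, and it was higher. Fos at G18.5 had 395.6, 262.4 and 424.0 CPM in the pregnancy table, against 183.1 and 99.3 CPM in the WT cells of the Acss2 table, which were normalised separately. In KO cells at G18.5 the change from G0 was called for 1 of 10 members, Jun (2.14 ± 0.23, adjusted p = 3.5e-05, background 2.47%). The difference of the 2 gestation effects between genotypes was 3.27 for Npas4 (adjusted p = 0.166), 2.69 for Fosb (0.266) and 1.40 for Fos (0.269), and none passed by edgeR (7 at an unadjusted p under 0.05, limma 0, DESeq2 4, background 0.0142%). A larger fall in WT than in KO cells is therefore not shown by that test.

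Other values moved with the low WT libraries at G18.5. Of the 26 tested Other immediate-early and early-response genes, 5 fell in WT cells at G18.5 relative to G0 (Arc -2.66, Gem -1.80, Tiparp -1.34 and Per1 -1.25 among them; list median -0.73). Of the Feedback inhibitors, Rgs2 (-4.07), Nfkbia (-0.95) and Zfp36 (-0.77) also fell, while Crem (0.98) rose. Of the Heat shock list, Hspa1a (-3.39) and Dnajb1 (-1.18) fell, while Hspe1 (0.56) rose. Both markers of PP cells (Ppy -3.93, Pyy -3.45) fell, with a summed level of 30.2 and 66.7 CPM in WT cells at G18.5 and 540.7 and 1125 CPM in WT cells at G0. The summed hepatocyte markers were at 9.07 and 4.76 CPM in WT cells at G18.5, against 52.8 and 59.5 CPM in WT cells at G0, and the summed acinar markers at 21.5 and 0.832 CPM, against 0.687 and 0.557 CPM. Between genotypes at G18.5, the PP sum was 139.7 and 293.3 CPM in KO cells, against 30.2 and 66.7 CPM in WT cells, and the δ-cell sum 225.2 and 215.9 CPM, against 51.7 and 113.3 CPM. Insulin took 56.2% and 55.3% of reads in KO cells, against 57.7% and 69.8% in WT cells, and the median cell held 724599 and 807001 reads, against 1086336 and 925529. The part of these in the result was not tested.

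Jun followed its own course in the Acss2 table. At G14.5 Jun had 146.6 and 157.6 CPM in KO cells and 92.3 and 95.2 CPM in WT cells, and at G0 18.8 and 21.4 CPM in KO cells and 32.5 and 61.3 CPM in WT cells. Against G0 it rose by 2.92 ± 0.24 at G14.5 in KO cells (adjusted p = 2e-06, background 4.35%) and by 1.00 ± 0.22 in WT cells (0.0197, background 2.92%), each the only member called. The WT call was lost without G0 WT replicate 1 or either G14.5 WT library, and with limma. The difference of the 2 changes was 1.92 (adjusted p = 0.0597), which edgeR did not call, and neither KO against WT contrast was called for Jun (G0 -1.22, adjusted p = 0.422; G14.5 0.70, 0.316). At these times edgeR called 0 of 20 member tests between KO and WT cells (1 at each time at an unadjusted p under 0.05, limma 0, DESeq2 1, Jun at G0; backgrounds 0.00711% and 0.0213%). For the interaction at G14.5 the background was 0.0213%, and DESeq2 called 1 member, Jun.

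**Figure D3:**
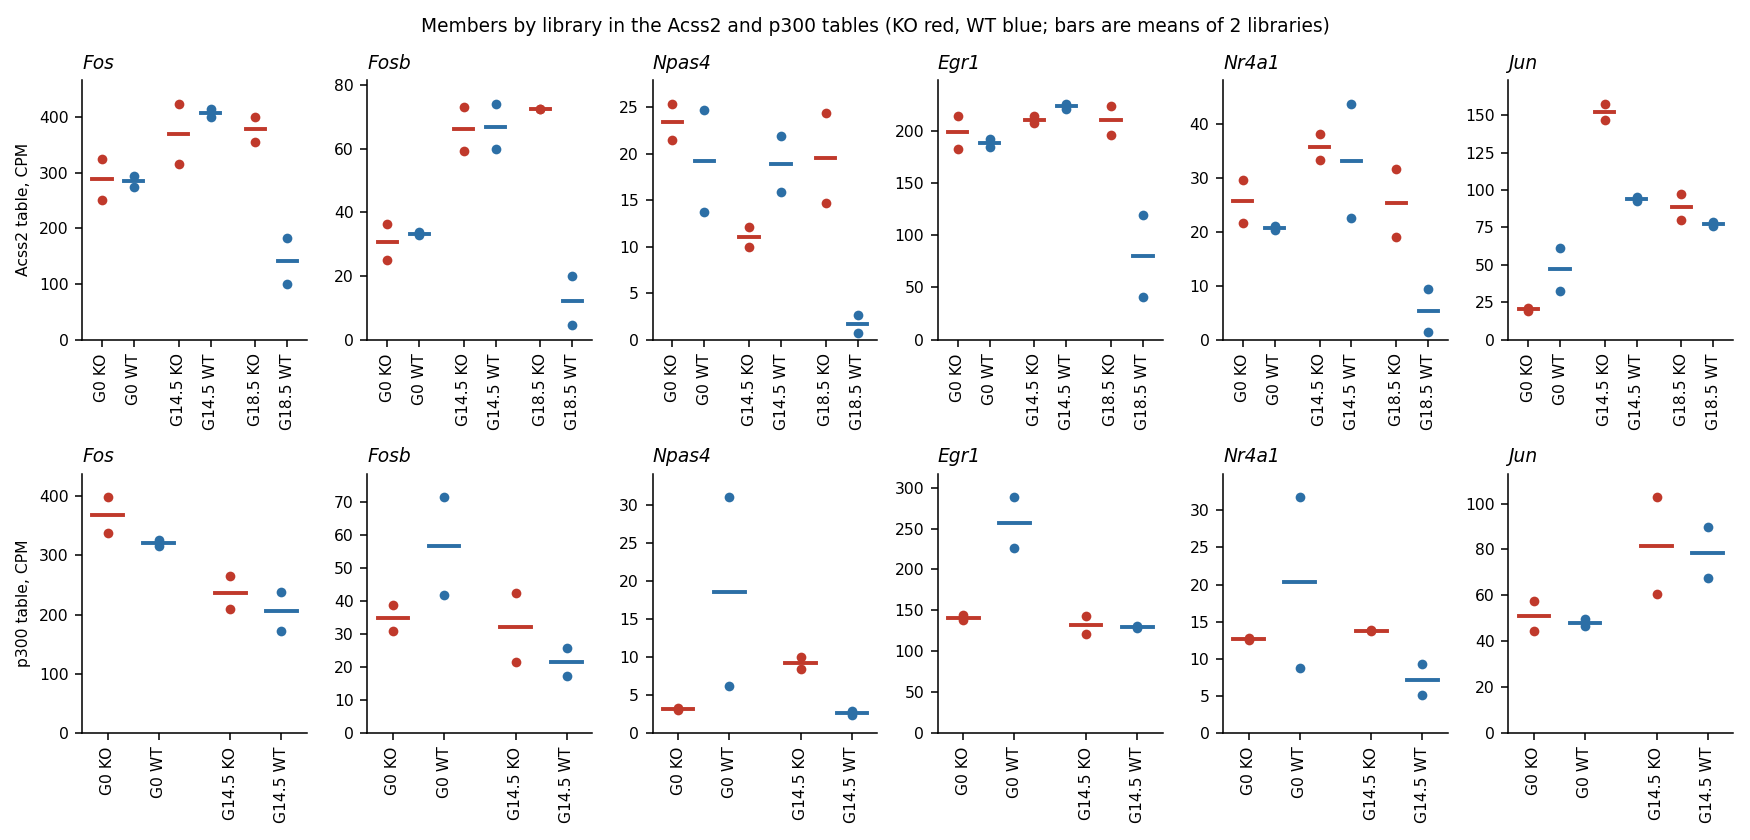
Level of 6 members in CPM in the Acss2 and p300 tables, with KO libraries in red to the left of WT libraries in blue at each time. At G18.5 Fos, Fosb and Npas4 of the Acss2 table lie higher in both KO libraries than in both WT libraries, and at G0 Npas4 and Egr1 of the p300 table lie lower.

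In Stat3 KO cells at G14.5 the listed members were low, without a call. Fos had 239.1 and 161.4 CPM in KO cells, against 617.9 and 581.3 CPM in WT cells, and Fosb 38.5 and 16.6 CPM, against 119.8 and 103.6 CPM. Egr1 had 165.9 and 105.8 CPM in KO cells, against 295.9 and 287.4 CPM in WT cells, and Nr4a1 23.1 and 6.05 CPM, against 61.5 and 56.4 CPM. None of the 4 overlapped between genotypes, and the share of all genes without overlap was not counted. The log2 fold changes were -1.58, -2.02, -1.10 and -2.02, with adjusted p from 0.258 to 0.286 by edgeR, over 10207 genes of which 0.00980% were called at G14.5. All 4 had an unadjusted p under 0.05, DESeq2 called 1 (Egr1) and limma 0. Within KO cells, the 4 were also lower at G14.5 than at G0 (Fos -1.09, Fosb -1.64, Egr1 -0.93, Nr4a1 -1.44), with none past the test (lowest adjusted p = 0.124). At G18.5 the genotypes overlapped, with Fos at 373.4 and 315.4 CPM in KO cells and 520.8 and 145.7 CPM in WT cells, and at G0 and G18.5 no member reached an unadjusted p under 0.05 (backgrounds 0% and 0.0196%). No gestation contrast of this table called a member by edgeR (4 at an unadjusted p under 0.05, limma 0, DESeq2 1), with backgrounds of 1.70% at G14.5 and 1.48% at G18.5 in KO cells and 1.74% and 2.06% in WT cells, and edgeR called 0 of 10 interaction terms (3 at an unadjusted p under 0.05, DESeq2 0, limma 0, backgrounds 0% at G14.5 and 0.0392% at G18.5).

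In p300 KO cells at G0, Npas4 and Egr1 were lower. p300, encoded by Ep300, acetylates histones at enhancers and promoters. Npas4 had 2.96 and 3.29 CPM in KO cells, against 30.98 and 6.16 CPM in WT cells, and Egr1 had 137.9 and 143.7 CPM in KO cells, against 288.3 and 226.1 CPM in WT cells. The groups did not overlap, although the WT libraries lay far apart for Npas4, and the share of all genes without overlap was not counted. The log2 fold changes were -2.56 ± 0.58 (adjusted p = 0.0494) and -0.87 ± 0.17 (0.0270), 2 of 10 members against 1.54% of 13475 genes. Both calls were lost without KO replicate 1, KO replicate 2 or WT replicate 1, and with limma. The call of Npas4 was also lost with a block on replicate number. With cells thinned, an Npas4 read was found in at most 18.6% of the cells of a KO library, against 63.3% and 24.7% of WT cells, from libraries of 43 and 40 KO cells and 30 and 85 WT cells.

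Between p300 KO and WT cells at G14.5, 0 of 10 members passed edgeR's test (2 at an unadjusted p under 0.05, DESeq2 0, limma 0, background 0%). Npas4 had 9.92 and 8.35 CPM in KO cells, against 2.31 and 2.90 CPM in WT cells at G14.5, the opposite order to G0. In WT cells Npas4 fell at G14.5 relative to G0 (-2.82 ± 0.59, adjusted p = 0.0265), and so did Egr1, with 128.7 and 131.03 CPM at G14.5, against 288.3 and 226.1 CPM at G0 (-0.99 ± 0.17, 0.0106; background 2.15%). Limma ended both calls, as did leaving out WT G14.5 replicate 1, and that of Npas4 was also lost without WT G14.5 replicate 2 or WT G0 replicate 1. Markers of other endocrine cells fell in the same WT contrast: 3 of 7 α-cell markers (Gcg -5.69, Ttr -1.66 and Slc7a2 -1.06), 1 of 3 tested δ-cell markers (Sst -4.73) and both PP markers (Pyy -6.60, Ppy -4.99). Their summed levels were 560.7 and 779.5 CPM at G14.5, against 1289 and 2696 CPM at G0 for α cells, 11.8 and 12.6 CPM, against 237.3 and 237.6 CPM for δ cells, and 8.22 and 3.57 CPM, against 438.9 and 196.3 CPM for PP cells. Their part in the result was not tested. In KO cells Jund rose, with 86.7 and 79.9 CPM at G14.5, against 41.3 and 42.8 CPM at G0 (0.99 ± 0.18, 0.0113; background 3.27%), a call lost on leaving out any of the 4 libraries and with limma. Gcg (-7.64), Sst (-4.61), Ppy (-5.49) and Pyy (-4.77) fell in KO cells too. The difference in gestation effect between genotypes was 4.37 ± 0.81 for Npas4 (adjusted p = 0.0782), and 0 of 10 members passed by edgeR (5 at an unadjusted p under 0.05, limma 0, DESeq2 2, which were Npas4 and Egr1; background 0.0668%). Beside the G0 result, 5 of 26 tested Other immediate-early and early-response genes were lower in p300 KO cells (Myc -4.38, Errfi1 -2.52, Trib1 -1.61 and Per1 -1.52 among them), as was Rgs2 (-4.76), while Dnajb1 was higher (1.04). C1qa, the one tested immune marker, was also lower (-1.88), with summed immune markers at 13.7 and 17.1 CPM in KO cells, against 57.7 and 38.1 CPM in WT cells, where 5 to 6 of the 7 markers were at 0 in each library. The part of the heat-shock and immune genes in the result was not tested.

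On the high-fat diet, Jun again was the member called with gestation. In HFD Acss2 WT cells Jun had 112.6 and 131.8 CPM at G14.5, against 39.9 and 26.3 CPM at G0 (1.88 ± 0.35, adjusted p = 0.00658; 1 of 10 members, background 1.93%). The call was lost without replicate 2 of either group. In HFD Acss2 KO cells Jun had 63.8 and 155.7 CPM at G14.5, against 55.2 and 38.9 CPM at G0 (1.22, adjusted p = 0.0526, background 3.85%). In HFD cells without a genotype label it had 95.04, 161.6 and 97.8 CPM at G14.5, against 68.95 and 56.2 CPM at G0 (0.92, 0.152, background 1.95%). DESeq2 called Fosl2 and Jund in the KO contrast, and Ier2 beside Jun in the WT contrast. Diet itself gave no call: between HFD and standard diet at G14.5 in Acss2 WT cells, edgeR called 0 of 10 members (2 at an unadjusted p under 0.05, DESeq2 0, limma 0, background 0.213%).

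Between HFD Acss2 KO and HFD Acss2 WT cells, 0 of 20 member tests were called by edgeR (1 at an unadjusted p under 0.05, DESeq2 0, limma 0, backgrounds of 0% at G0 and 0.0638% at G14.5). Single libraries set the spread here. In HFD Acss2 KO cells at G0, Fosb had 12.6 and 162.3 CPM and Fos 240.6 and 590.2 CPM. In standard-diet Acss2 WT cells, replicate 2 was the lowest library of the table for 5 members, with Fosb at 7.48 CPM and Egr1 at 55.95 CPM. At P7NL on HFD edgeR called 0 of 20 member tests (3 at an unadjusted p under 0.05, DESeq2 0, limma 0), against G0 (background 0%) or G14.5 (background 1.32%).

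In cultured islets, A485 raised Fos and Junb in both sera, Fosb and Egr1 in normal serum and Ier2 in maternal serum, and lowered Jun in maternal serum. In normal serum Fos had 479.7 and 417.2 CPM with A485, against 218.3 and 206.4 CPM with vehicle (1.08 ± 0.13, adjusted p = 0.00221). Junb had 338.2 and 337.0 CPM with A485, against 157.7 and 161.4 CPM with vehicle (1.08 ± 0.16, 0.00716). Fosb had 61.6 and 56.6 CPM with A485, against 21.2 and 13.2 CPM with vehicle (1.80 ± 0.30, 0.0111). Egr1 had 538.7 and 475.7 CPM with A485, against 341.2 and 358.6 CPM with vehicle (0.54 ± 0.12, 0.0460). No library of these 4 genes overlapped between treatments, and the share of all genes without overlap was not counted. EdgeR called 4 of 10 members higher, against 0.575% of 13554 genes called higher and 2.57% called in either direction. Fos kept its call without any 1 library, Junb lost it without either A485 library, Fosb without either A485 library or vehicle replicate 2, and Egr1 without any of the 4 or without the 1 cell that had over 5% of reads in other hormones.

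In maternal serum A485 acted on an overlapping set. Fos had 441.0 and 488.5 CPM with A485, against 269.2 and 248.5 CPM with vehicle (0.84 ± 0.13, adjusted p = 0.00661), and Junb 476.9 and 442.0 CPM, against 280.7 and 198.6 CPM (0.94 ± 0.16, 0.00900). Ier2 had 216.2 and 237.6 CPM with A485, against 124.7 and 99.997 CPM with vehicle (1.01 ± 0.19, 0.0162). Jun had 34.9 and 30.5 CPM with A485, against 263.4 and 100.1 CPM with vehicle (-2.47 ± 0.40, 0.00807). The groups did not overlap for these 4 genes, and the share of all genes without overlap was not counted. The calls made 3 members higher (background 0.701%) and 1 lower (2.60%), of 3.30% called in all. Leaving out A485 replicate 2 ended the call of Fos, A485 replicate 1 that of Junb, either A485 library those of Jun and Ier2, and vehicle replicate 2 also that of Ier2. Not past the test here were Egr1 (0.48, adjusted p = 0.0579) and Fosb (0.62, 0.286), and in normal serum Ier2 (0.51, 0.186) and Jun (-1.41, 0.0810).

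The A485 effects were not shown to differ between sera: edgeR called 0 of 10 interaction terms (1 at an unadjusted p under 0.05, DESeq2 0, limma 0, background 0.00738%). Jun with vehicle was uneven between cells, since the top 5% of cells held 77.1% of its reads in MS vehicle replicate 1 and 24.02% in replicate 2. The median cell held 4.89 and 3.92 CPM of Jun with A485, against 46.5 and 57.6 CPM with vehicle in maternal serum, so the difference was also seen outside those cells. For Fos the median cell held 460.4 and 404.2 CPM with A485, against 131.6 and 148.1 CPM with vehicle in normal serum, and 471.7 and 627.1 CPM, against 215.3 and 234.1 CPM, in maternal serum. With limma on the mean CPM of cells, 0 of the 20 A485 tests passed, while DESeq2 called 10 and 13 had an unadjusted edgeR p under 0.05.

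**Figure D4:**
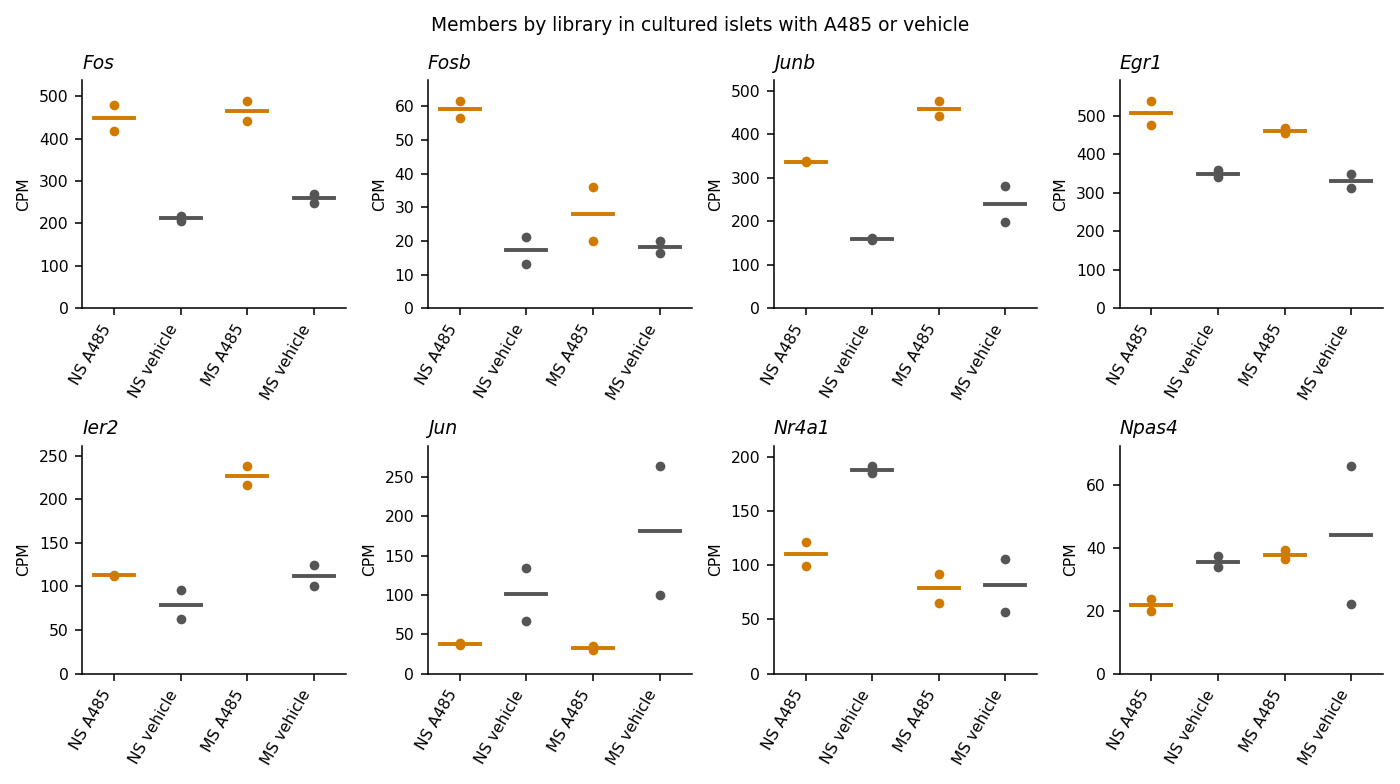
Level of 8 members in CPM in cultured islets, with A485 libraries in orange to the left of vehicle libraries in grey, in each serum. Fos and Junb lie higher with A485 in both sera, and Jun lies lower in both.

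Insulin reads, markers of other cells and other early genes moved alongside. Insulin took 48.1% and 49.6% of reads with A485, against 61.3% and 59.9% with vehicle in normal serum, and 35.5% and 36.3%, against 51.2% and 41.7%, in maternal serum. Among the β-cell markers, 4 of 8 fell in each serum (Ins1, Ins2, Slc2a2 and Iapp, with Iapp at -0.91 in normal and -0.94 in maternal serum). Among markers of other cells, Gc of the α-cell list fell in both sera (-3.59 and -4.53), as did C1qa of the immune list (-2.70 and -2.81). In normal serum Sst also fell (-4.57), with summed δ-cell markers at 125.9 and 112.8 CPM with A485, against 2471 and 474.6 CPM with vehicle, and Krt7 of the ductal list (-0.62). In maternal serum Fga (-6.12) and Fgb (-4.23) of the hepatocyte list fell and Apoa1 (3.34) rose. The part of these markers in the result was not tested. Among these A485 and vehicle libraries, 1 cell, of vehicle in normal serum, had over 5% of its reads in other hormones. The A485 calls stayed in place with Ins1 and Ins2 left out of the library sizes. Of the 27 tested Other immediate-early and early-response genes, 4 fell with A485 in normal serum (Klf4 -3.68, Klf6 -2.32, Ier5 -1.94 and Klf10 -1.56) and 4 in maternal serum (Atf3 -5.14, Ier5 -2.86, Klf10 -2.38 and Klf6 -2.24). Among the Feedback inhibitors, Rgs2 rose in both sera (1.42 and 2.27), and in normal serum Zfp36 (1.16) and Btg2 (0.78) rose and Crem (-0.91) fell. Of the bZIP partners of AP-1, Atf3 (-5.14) and Atf1 (-0.87) fell in maternal serum, and across all 54 comparisons this list had 4 other calls (Atf4 at G10.5, Atf1 and Mafg in p300 KO cells at G14.5 against G0, and Mafg with nifuroxazide in maternal serum, all higher). Early-response genes thus moved in both directions with A485.

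Nifuroxazide gave no call among the members, although 19 of 20 fold changes were negative. EdgeR called 0 of 20 tests (8 at an unadjusted p under 0.05, limma 0, DESeq2 3), with backgrounds of 1.99% in normal and 0.697% in maternal serum. Npas4 had 27.7 and 16.45 CPM with nifuroxazide, against 33.9 and 102.6 CPM with vehicle in normal serum (-1.63, adjusted p = 0.0566). Nr4a1 had 111.5 and 128.03 CPM with nifuroxazide, against 145.9 and 294.2 CPM with vehicle in normal serum (-0.88, 0.131), and 82.9 and 84.5 CPM, against 207.4 and 143.7 CPM, in maternal serum (-1.07, 0.120). Jun had 48.98 and 30.7 CPM with nifuroxazide, against 249.4 and 60.1 CPM with vehicle in maternal serum (-1.96, 0.0835). The vehicle libraries differed widely there, with Fos at 1023 and 157.3 CPM. DESeq2's 3 calls were Nr4a1 in both sera and Junb in maternal serum.

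Maternal against normal serum also gave no call. In the A485 table edgeR called 0 of 20 tests (8 at an unadjusted p under 0.05, limma 0, DESeq2 4), with backgrounds of 0.657% with vehicle and 0.288% with A485. Nr4a1 with vehicle had 106.03 and 56.6 CPM in maternal serum, against 184.9 and 191.0 CPM in normal serum (-1.21, adjusted p = 0.0663), and Ier2 was higher in maternal serum with A485 (1.00, 0.0617, not called). In the nifuroxazide table the counts were 0 of 20 (2 at an unadjusted p under 0.05, DESeq2 0, limma 0, backgrounds 1.02% and 0.490%). Fosl2, the AP-1 subunit scarce in freshly sorted cells, lay between 4.05 and 27.2 CPM in the nifuroxazide table and 9.58 and 24.98 CPM in the A485 table, and between 0.932 and 6.08 CPM in the pregnancy table, levels set across tables that were normalised separately and without a test.

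Over all 54 comparisons, Jun was called most often, higher in 12 and lower in 1 of the 47 comparisons that list it. Jund was called higher in 5 and lower in 0, Fos and Fosb each higher in 3 and lower in 1, and Junb higher in 2 and lower in 1. Npas4 and Egr1 were each called higher in 1 and lower in 3, Ier2 higher in 1 and lower in 1, and Nr4a1 lower in 1. Fosl2 was called in none by edgeR (7 at an unadjusted p under 0.05, 1 by DESeq2). Several comparisons share their G0 or vehicle libraries, so these counts are not independent.

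**Figure D5:**
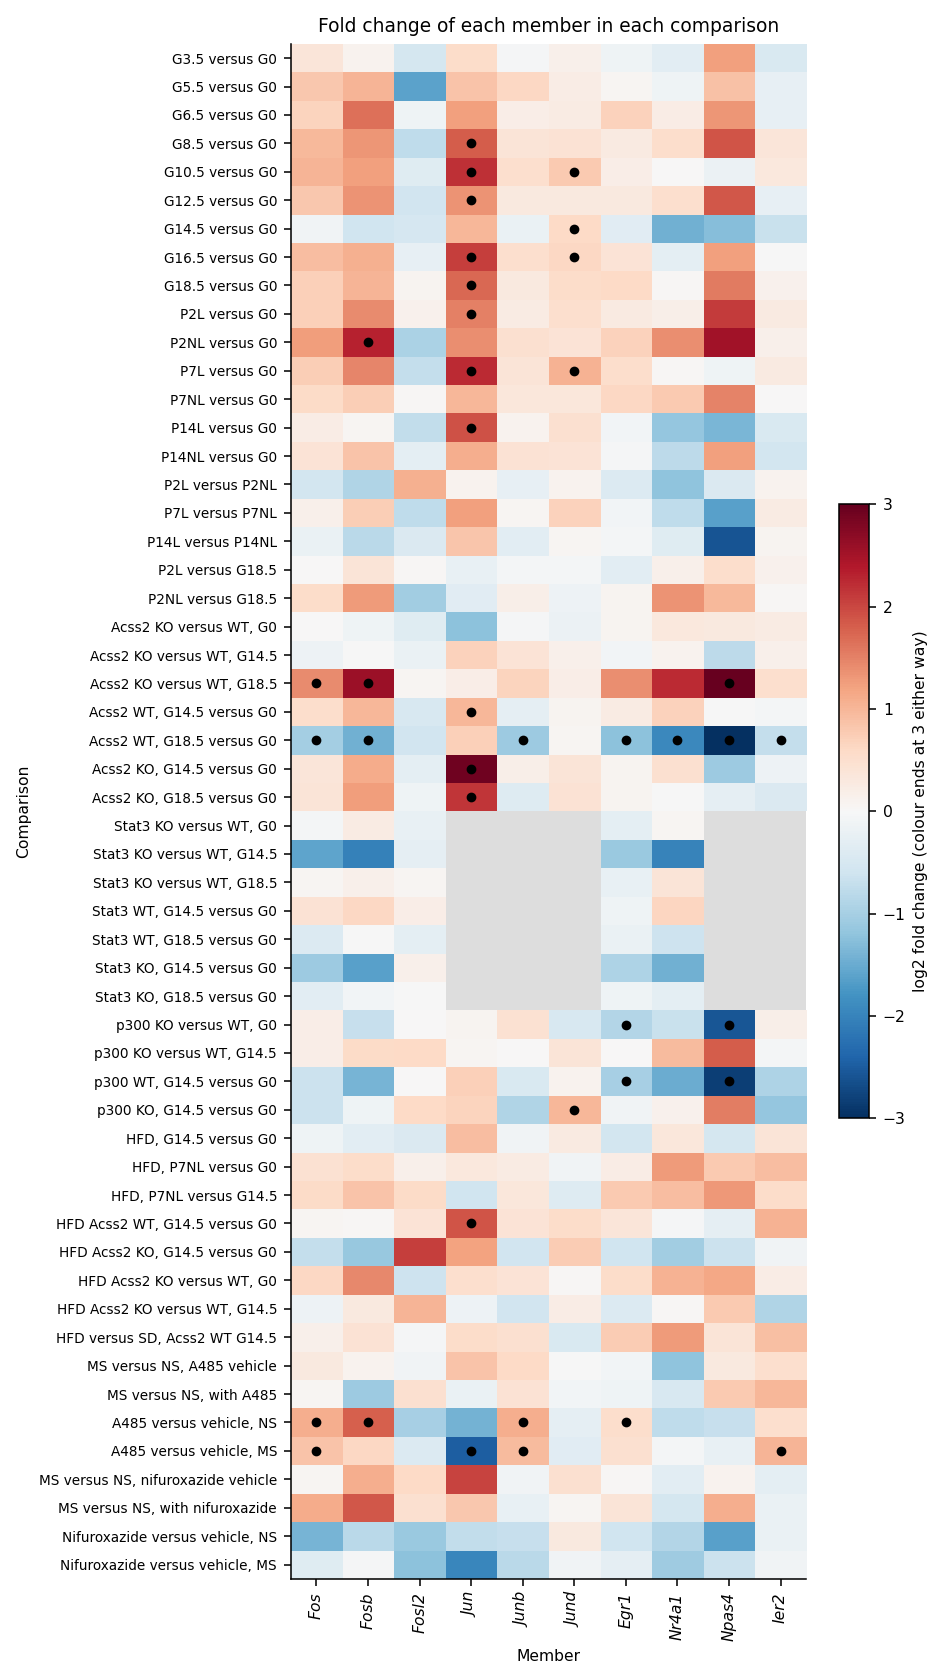
Log2 fold changes of the 10 members in the 54 comparisons, with a black dot on each call and grey where the Stat3 table does not list a member. Jun carries 13 of the 40 calls, and 7 members fall together in the row of WT cells at G18.5 against G0 of the Acss2 table.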

How the data were processed

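Read counts per gene of single sorted β cells were used as deposited by the authors, 1 column a cell. Reads had been trimmed and counted with tools that the submitters' processing notes list as featureCounts 2.0.1 and Trimmomatic 0.39, beside Cell Ranger 3.1.0, on GRCm38 (mm10). The aligner and gene annotation were not given in the sources used here. Counts were summed by group and replicate, giving libraries of 13273435 to 181405413 reads. CPM used TMM library sizes, and CPM per kb the deposited gene length. Each table was fitted alone with edgeR 4.0.16 (quasi-likelihood test, filterByExpr, all groups in 1 model, R 4.3.3), with Benjamini-Hochberg adjustment over all genes tested within a comparison and a threshold of 0.05. SEs are the absolute log2 fold change over the root of F. Alternatives were DESeq2 1.42.0, limma 3.58.1 on log2 of the mean CPM of cells plus 0.5, DESeq2 size factors, no filter, Ins1 and Ins2 left out, cells with over 5% of reads in other hormones left out, each library left out, and a replicate block. The scripts were tested on simulated data. Members and lists were chosen with earlier results of these data known. All 10 members were tested in every comparison whose table lists them, and of each pathway list at most 4 called genes with the largest change are named. The 2 droplet samples and 1 gene with missing values in each of the Stat3 and p300 tables were not analysed here. Replicate numbers were not treated as pairs in the main test, and whether they pair the samples is not known.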

Additional observations from a re-analysis of the deposited data

How the results depend on the processing

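None of the 40 single calls of a member changed sign under any alternative run. Leaving out 1 library kept 85 and lost 78 of these calls counted over libraries, and limma on the mean CPM of cells kept 15 and lost 25. DESeq2 lost 2, DESeq2 size factors 1, leaving out cells with other hormones 1, the replicate block 2, and leaving out Ins1 and Ins2 or the low-count filter lost none. Most of the 40 calls were thus lost on leaving out at least 1 of their libraries. With 2 or 3 libraries a group, leaving out 1 often leaves a group of 1. Whether a lost call reflects the library left out or the smaller group was not tested. In these fits the log2 fold change of Jund at G10.5 against G0 ran from 0.74 to 0.81 (0.77 with all libraries). For Jun at G8.5 against G0 it ran from 1.31 to 2.66 (1.81 with all libraries).

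Without the filter on low counts (more genes tested), the calls came to 43 for gestation against G0 (8 with the filter), 28 after delivery (5), 11 for L against NL (0), 4 against G18.5 (0), 20 interaction terms (0), 8 for Acss2 KO against WT (3), 17 for gestation in the Acss2 table (10), 4 for Stat3 KO (0), 4 for gestation in the Stat3 table (0), 4 for p300 KO (2), 13 for gestation in the p300 table (3), 19 for gestation on HFD (1), 4 for Acss2 KO on HFD (0), 3 for HFD against standard diet (0), 6 for serum in the A485 table (0), 14 for A485 (8), 6 for serum in the nifuroxazide table (0) and 10 for nifuroxazide (0). The cause was not tested. The shares of all genes called in the unfiltered fit are not given here, so these counts are not a result about the members. With DESeq2 the calls were 1 for L against NL, 7 interaction terms, 6 for Acss2 KO, 1 for Stat3 KO, 1 for gestation in the Stat3 table, 10 for gestation in the p300 table, 4 for gestation on HFD, 4 for serum in the A485 table and 3 for nifuroxazide. With limma they were 0 for Acss2 KO, 4 for gestation in the Acss2 table, 0 for p300 KO, 0 for gestation in the p300 table and 0 for A485. The cause was not tested.

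Leaving out 1 library at a time gave 2 to 13 calls for gestation, 2 to 6 after delivery, 0 to 5 interaction terms, 1 to 5 for Acss2 KO, 4 to 10 for gestation in the Acss2 table, 0 to 1 for gestation in the Stat3 table, 0 to 2 for p300 KO, 1 to 7 for gestation in the p300 table, 0 to 2 for gestation on HFD, 0 to 1 for serum in the A485 table, 5 to 8 for A485, 0 to 1 for serum in the nifuroxazide table and 0 to 2 for nifuroxazide. It gave 0 to 0 for L against NL, against G18.5, Stat3 KO, Acss2 KO on HFD and HFD against standard diet.

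The replicate block gave 1 call for Stat3 KO, 3 for gestation in the Stat3 table, 1 for p300 KO, 5 for gestation in the p300 table and 2 for serum in the A485 table. Deviations of same-numbered libraries correlated above 0.1 in 2 of 243 pairs of the pregnancy table, 2 of 30 in the Acss2 table, 2 of 30 in the Stat3 table, 2 of 12 in the A485 table and in none of the p300, HFD and nifuroxazide tables. In the A485 table r ran from -0.0139 to 0.143. With 2 or 3 libraries a group, this check cannot exclude that the numbers pair the samples. Under the block the calls of Jund at G14.5 against G0 and of Npas4 in p300 KO cells at G0 did not pass.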
